A study of Rattus norvegicus with 6 samples.

Results

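Genes of cholesterol and fatty acid synthesis were examined in rat aortic smooth muscle cells under fluid shear stress. The list held 41 genes: 5 regulators, 8 genes of the mevalonate pathway, 11 of the later steps from squalene to cholesterol, 11 of fatty acid synthesis, desaturation and elongation, 4 of sterol uptake and transport and 2 of sterol efflux. Members were taken as every probe set annotated with exactly 1 of the 41 symbols, which gave 72 of 31042 probe sets on the Affymetrix rat arrays and 39 of 14217 named genes. Hmgcs1 and Npc1 were not analysed here. All 39 matched genes had a probe set above the limit for dim signals, and 69 of their 72 probe sets were tested; 1 further probe set each of Srebf2, Mvk and Abcg1 was too dim.

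The study compared 3 static cultures with 3 cultures exposed over 24 h to laminar shear stress of 14 dynes per square centimetre, an arterial level, inside a parallel-plate chamber whose flow came from the height difference between reservoirs. All cells were of passage 3 to 5, were grown to confluence with 10% fetal calf serum and were then kept for 24 h in medium with 0.1% bovine serum albumin. No genotype, strain or animal age is given, and static and sheared samples carried pairing numbers 1 to 3. The sources used here do not say what a pair had in common or whether cultures came from separate animals; the spread behind each p-value is that between these 6 samples and may be technical. Whether static cultures were kept in a chamber is not said either, so flow and the chamber itself cannot be told apart.

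Cells make cholesterol from acetyl-CoA through mevalonate, isoprenoid diphosphates and squalene, and make fatty acids from the same precursor through malonyl-CoA. Both branches are controlled by membrane-bound transcription factors, the sterol regulatory element-binding proteins: SREBP2, encoded by Srebf2, acts mainly on sterol genes, and the SREBP1c form encoded by Srebf1 acts mainly on fatty acid genes. SCAP escorts these proteins from the endoplasmic reticulum to the Golgi, where they are cleaved, and the INSIG proteins hold SCAP back when sterols are plentiful. In the arterial wall smooth muscle cells take up, make and export cholesterol, and they are among the cells that fill with lipid in atherosclerosis.

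Most of these genes had lower signals in sheared cells. By the brightest probe set of each gene, 27 of 39 fell, 4 rose and 8 did not pass (limma, adjusted p under 0.05). The background was broad: over all 11248 genes tested, 30.1% fell and 27.8% rose. In 27 of the 39 genes all 3 sheared arrays lay below all 3 static arrays, against 33.8% of all genes, and in 4 all sheared arrays lay above, against 30.6% of all genes. The former 27 are not quite the fallen 27: Ebp did not overlap and did not pass, and Fads2 fell with overlapping arrays. The median log2 change of the 39 genes was -0.78, and that of all genes was -0.05. Counted by probe set, 49 of 69 fell and 5 rose (48 of 68 and 5 without a dim Scd2 probe set that passed the filter only through the static arrays), where 28.5% and 24.3% of all probe sets did and 52.8% passed in either direction. By gene, 57.9% of all genes passed in either direction. Centring each array on its median raised the median change over all probe sets by 0.15 and the share of risen calls from 46.1% to 59.1%; the 39 genes then split into 23 fallen and 4 risen. In these bulk samples fewer cells of a type and less RNA per cell cannot be told apart.

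**Figure D1:**
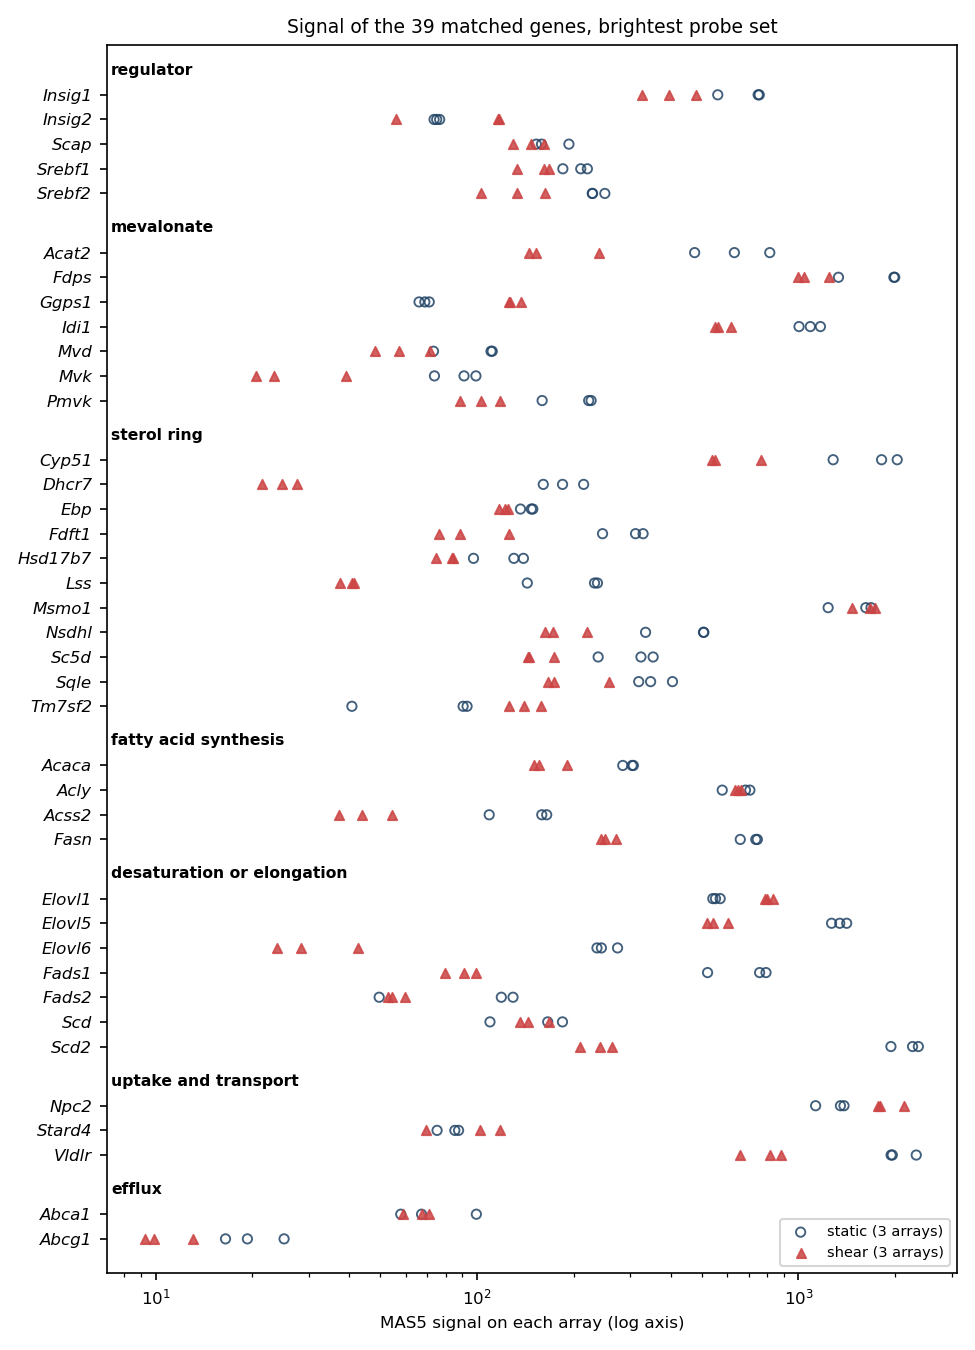
Signal on each array (horizontal log axis, linear MAS5 units) for the brightest probe set of each of the 39 matched genes, grouped by role; open circles are the 3 static arrays and filled triangles the 3 shear arrays. Triangles lie wholly to the left of the circles in 27 genes and wholly to the right in 4, Ggps1, Tm7sf2, Elovl1 and Npc2.

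The cell type was checked on markers. Smooth muscle markers summed to a signal of 5066.1 to 5692.1 on static and 4037.2 to 4141.1 on sheared arrays. Leaving out Lmod1, which passed the filter on dim signals only through the static arrays, 4 of 7 fell, against 30.1% of all genes. These were Acta2, Myh11, Cnn1 and Smtn. Tagln, the brightest marker, did not pass, with a mean of 2684 on static and 2815 on sheared arrays (log2 change 0.07). Myocd did not pass either (-0.17), and Des was dim on every array, at up to 18.4. The 5 endothelial markers matched summed to 25.0 to 34.9 on static and 18.5 to 27.8 on sheared arrays, with Pecam1 and Vwf at up to 8.6 and 7.7. Tek, the brightest of them, stood at up to 21 and did not pass (-0.08). The 6 adipocyte markers summed to 14.9 to 31.5 and 19.3 to 27.2, with Adipoq at up to 4.5 and Fabp4 at up to 3.7. Pparg, the brightest of these, stood at up to 15.5 and did not pass (0.07). The 5 leukocyte markers matched summed to 24.8 to 33.9 on static and 44.1 to 55.5 on sheared arrays, with Ptprc at up to 3.0 and Itgam at up to 1.5. Cd68, which was dim, rose from 5.7, 15 and 9.5 to 25.6, 29.1 and 22.8. Coro1a went from 4.8, 6.4 and 3.3 to 9.9, 14.5 and 12.3 and passed the filter only through the sheared arrays. Cd3e had the opposite sign and did not pass, at 12, 10.3 and 17.4 on static and 5.9, 10.8 and 8.3 on sheared arrays (-0.26). The part that these shifts in smooth muscle and leukocyte markers have in the results was not tested.

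Among the 5 regulators 3 fell, 0 rose and 2 did not pass, with changes smaller than those of many enzymes. Over all genes 30.1% fell and 27.8% rose, and the 57.9% that passed in either direction was close to 3 of 5. Srebf2, the sterol branch's transcription factor, had signals of 249.8, 228 and 229 on static arrays 1 to 3 and 163, 103 and 133 on sheared arrays 1 to 3, a log2 change of -0.78 (95% interval -1.06 to -0.49; adjusted p = 0.0011). Insig1, which retains SCAP and is itself a target of the SREBPs, had static signals of 561, 749 and 755 and sheared signals of 326, 395 and 478, a log2 change of -0.76 (95% interval -0.97 to -0.56; adjusted p = 0.00025). As a mean over its probe sets, which takes in one with signals of no more than 6, Srebf2 changed by -0.34 (adjusted p = 0.025). For both genes the sheared arrays lay below the static arrays without overlap. Srebf1, the fatty acid branch's factor, went from 185, 210.2 and 220.4 to 133, 167 and 162, a log2 change of -0.38 (95% interval -0.62 to -0.15; adjusted p = 0.014). The groups did not overlap on this probe set but overlapped on the dimmer one, which did not pass (-0.28; adjusted p = 0.088), and the call was lost without pair 2 (-0.42, adjusted p = 0.073), without pair 3 (-0.37, adjusted p = 0.11) and after median centring (-0.23, adjusted p = 0.10).

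Scap, the escort protein, did not pass: its static signals were 193, 153 and 159, its sheared signals were 147, 129.7 and 162, and the log2 change was -0.18 (95% interval -0.45 to 0.09; adjusted p = 0.22). The groups overlapped, and the dimmer Scap probe set had the opposite sign with no overlap (0.25; adjusted p = 0.14). Insig2, the other retention protein, had static signals of 74.9, 73.5 and 76.5 and sheared signals of 56.1, 117 and 116, a log2 change of 0.25 (95% interval -0.18 to 0.68; adjusted p = 0.29). Sheared array 1 lay below all static arrays while sheared arrays 2 and 3 lay above them, and without pair 1 the gene passed as risen (0.55, adjusted p = 0.00024). On the other Insig2 probe set the 3 pairs differed by -0.77, 0.03 and 0.04. The 95% interval of Insig1 lay wholly below that of the brightest Insig2 probe set but overlapped that of the other Insig2 probe set (-0.64 to 0.17).

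**Figure D2:**
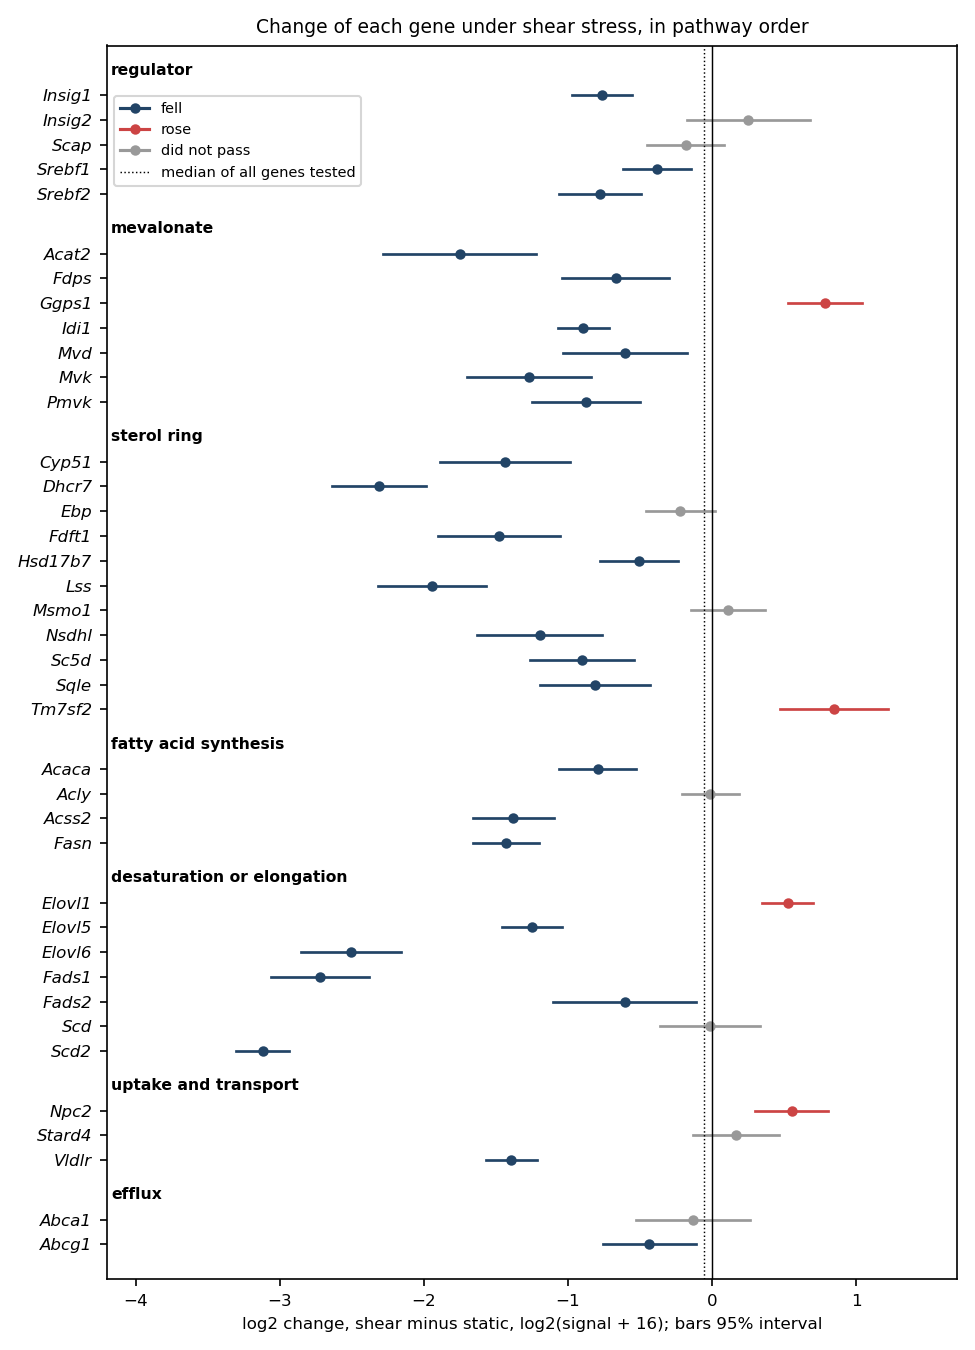
Log2 change of each gene (horizontal axis, shear minus static on log2(signal + 16), brightest probe set) with its 95% interval, ordered by role; blue fell, red rose and grey did not pass, and the dotted line is the median of all genes tested (-0.05). The desaturase, elongase and late sterol genes reach furthest to the left, with Scd2 at -3.12, Fads1 at -2.72, Elovl6 at -2.50 and Dhcr7 at -2.31.

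In the mevalonate pathway 6 of 7 matched genes fell and 1 rose, where 30.1% and 27.8% of all genes did. Acat2, the cytosolic acetyl-CoA acetyltransferase that starts the pathway, went from 475, 632 and 814 to 239, 145 and 153, a log2 change of -1.75 (95% interval -2.28 to -1.22; adjusted p = 0.00044). Mvk, mevalonate kinase, went from 73.7, 91.1 and 99.2 to 39.1, 23.3 and 20.5, a log2 change of -1.27 (95% interval -1.70 to -0.84; adjusted p = 0.00078). The second tested Mvk probe set, at 49.3, 48.5 and 50.2 on static and 33.6, 26.6 and 21.7 on sheared arrays, changed by -0.60 (adjusted p = 0.0055). As a mean over its probe sets, which takes in an untested one with signals of no more than 2.5, Mvk stood at -0.60. With a pseudocount of 64 it stood at -0.73. Pmvk, the next kinase, went from 159, 226 and 222 to 118, 103 and 88.3, a log2 change of -0.87 (95% interval -1.25 to -0.50; adjusted p = 0.0026). In Acat2, Mvk (brightest probe set) and Pmvk the groups stayed apart, static array 1 was the lowest of the static arrays and sheared array 1 the highest of the sheared ones.

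Mvd, which decarboxylates mevalonate diphosphate, went from 73.2, 110.5 and 112 to 71.3, 57.1 and 48.1, a log2 change of -0.60 (95% interval -1.03 to -0.18; adjusted p = 0.026). Its pairs differed by -0.03, -0.79 and -0.99, so that pair 1 hardly differed, and the call was lost without pair 2 (-0.51, adjusted p = 0.099), without pair 3 (-0.41, adjusted p = 0.16), after median centring (-0.46, adjusted p = 0.056) and with no filter on dim probe sets (adjusted p = 0.066); with a pseudocount of 64 the change was -0.40. Idi1, which isomerises isopentenyl diphosphate, went from 1004, 1088 and 1170.1 to 564, 550.0 and 617, a log2 change of -0.90 (95% interval -1.07 to -0.72; adjusted p = 5.2e-05), with pairs at -0.82, -0.96 and -0.91. The dimmer Idi1 probe set fell as well (-1.33; adjusted p = 4.9e-05). Fdps, farnesyl diphosphate synthase, went from 1332, 1993 and 1980.5 to 1245, 996 and 1039, a log2 change of -0.67 (95% interval -1.04 to -0.30; adjusted p = 0.0089), with pairs at -0.10, -0.99 and -0.92.

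Ggps1, which makes geranylgeranyl diphosphate and so leads away from sterols towards protein prenylation, was the 1 gene of this group that rose. Its signals were 71, 66 and 68.8 on static and 127, 137 and 126 on sheared arrays, a log2 change of 0.79 (95% interval 0.53 to 1.04; adjusted p = 0.00064). All sheared arrays lay above all static ones. A dimmer probe set rose too (0.38; adjusted p = 0.033) and the dimmest did not pass (0.14; adjusted p = 0.47); the mean over them was 0.43.

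Of the 11 genes between squalene synthesis and cholesterol 8 fell, 1 rose and 2 did not pass (all genes: 30.1% fell, 27.8% rose). Dhcr7, which catalyses the last step of cholesterol synthesis from 7-dehydrocholesterol, had static signals of 161, 184 and 215 and sheared signals of 27.6, 24.8 and 21.5, a log2 change of -2.31 (95% interval -2.64 to -1.99; adjusted p = 1.1e-05). Lss, lanosterol synthase, which closes the sterol rings, went from 143, 232 and 237 to 41.5, 37.6 and 40.9, a log2 change of -1.94 (95% interval -2.32 to -1.57; adjusted p = 4.7e-05). Fdft1, squalene synthase, went from 246, 311 and 328 to 126, 76 and 88.2, a log2 change of -1.48 (95% interval -1.90 to -1.06; adjusted p = 0.00033). With a pseudocount of 64 the change of Dhcr7 was -1.49. The groups were well apart in these 3 genes, and the dimmer probe sets of Lss (-1.47) and Fdft1 (-1.83) fell as well.

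Cyp51, lanosterol 14-alpha-demethylase, went from 1282, 2028 and 1814 to 763, 537 and 550.5, a log2 change of -1.44 (95% interval -1.89 to -0.99; adjusted p = 0.00052). Nsdhl, a dehydrogenase that acts in the removal of the C4 methyl groups, went from 334, 506 and 508 to 221, 173 and 162, a log2 change of -1.20 (95% interval -1.63 to -0.77; adjusted p = 0.0011). Sc5d, the sterol C5 desaturase, went from 238, 324 and 353 to 173, 144 and 146, a log2 change of -0.90 (95% interval -1.26 to -0.54; adjusted p = 0.0018). The groups did not overlap in any of the 3, and pair 1 had the smallest drop in each, at -0.74, -0.57 and -0.43. The other probe sets fell too, 1 of Cyp51 (-1.30), 1 of Nsdhl (-1.47) and 2 of Sc5d (-0.61 and -0.86).

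Sqle, squalene epoxidase, a rate-limiting oxygenase of the pathway, went from 318, 347 and 406 to 257, 166 and 173, a log2 change of -0.81 (95% interval -1.20 to -0.43; adjusted p = 0.0039). Hsd17b7, the 3-ketosteroid reductase of C4 demethylation, went from 97.5, 139 and 130.2 to 74.5, 84.1 and 83.3, a log2 change of -0.51 (95% interval -0.78 to -0.24; adjusted p = 0.0073). The Hsd17b7 call was lost without pair 2 (-0.44, adjusted p = 0.073) and without pair 3 (-0.48, adjusted p = 0.059), although a second probe set gave nearly the same change (-0.50). Ebp, the sterol isomerase, did not pass, with static signals of 136, 149 and 148 and sheared signals of 117, 125 and 122 (-0.22; adjusted p = 0.11), and its groups nevertheless did not overlap.

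The remaining pair of late genes did not follow the rest. Msmo1, the C4-methyl sterol oxidase, had static signals of 1237, 1681 and 1619.5 and sheared signals of 1669, 1467 and 1730.1, a log2 change of 0.11 (95% interval -0.15 to 0.36; adjusted p = 0.44). The groups overlapped, and static array 1 was the lowest of all 6. Tm7sf2, a sterol C14 reductase, rose from 40.8, 93.1 and 90.5 to 126, 158 and 140.0, a log2 change of 0.85 (95% interval 0.47 to 1.22; adjusted p = 0.0030), with all sheared arrays above all static ones. The 95% intervals of Cyp51 and Nsdhl, which act close to Tm7sf2 and Msmo1 in the pathway, lay wholly below those of both. That of Ebp, another late gene (-0.46 to 0.02), lay below that of Tm7sf2 but overlapped that of Msmo1.

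The promoter windows of these genes were read from RefSeq (build GRCr8), from 250 bases before to 50 bases from the start of each gene, for 33 of the 41 members; Srebf1 had 2 windows, giving 34. The letters TCACNCCAC, a core of the sterol regulatory element, were searched on both strands and were found in 0 of 34 windows and in 1.12% of all 33469 windows. A shorter core lying within it, CACNCCAC, which was added after that count was seen, was found in 5 of 34 windows, those of Acat2, Fads1, Insig1, Elovl5 and Ebp, and in 5.80% of all windows. The box CCAAT, which binds NF-Y, a factor that acts with SREBPs, was found in 13 of 16 windows of the sterol branch, in 5 of 8 of the fatty acid branch and in 37.5% of all windows. The box GGGCGG, which binds SP1, was found in 13 of 16, in 4 of 8 and in 33.1%. Leaving out Hmgcs1 and Npc1, CCAAT was found in 16 of 21 windows of genes that fell and in 7 of 11 windows of genes that rose or did not pass, so it was common in both. The number of boxes varied within both groups. Dhcr7, Acat2 and Cyp51 fell with 0 boxes and Elovl1 rose with 0, while Hsd17b7 fell and Npc2 rose with 3 each. A match is a description of the letters and not evidence of binding. A missing match is likewise no evidence that an element is absent. With TCACNCCAC in only 1.12% of all windows, 0 of 34 carries little information. Shown here are Mvk and Nsdhl, the members with the most CCAAT boxes, 5 each, which both fell, and Msmo1, with 3, and Tm7sf2, with 2, which did not pass and rose; capitals mark CCAAT on either strand, and windows run along the gene's own strand.
Mvk, chr12:47819454-47819753, minus strand: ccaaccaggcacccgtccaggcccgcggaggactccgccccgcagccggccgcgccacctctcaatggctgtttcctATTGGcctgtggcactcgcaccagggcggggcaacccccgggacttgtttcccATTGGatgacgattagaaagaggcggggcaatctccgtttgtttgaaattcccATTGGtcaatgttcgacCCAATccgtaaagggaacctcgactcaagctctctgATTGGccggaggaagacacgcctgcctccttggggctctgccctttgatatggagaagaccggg
Nsdhl, chrX:155817110-155817409, plus strand: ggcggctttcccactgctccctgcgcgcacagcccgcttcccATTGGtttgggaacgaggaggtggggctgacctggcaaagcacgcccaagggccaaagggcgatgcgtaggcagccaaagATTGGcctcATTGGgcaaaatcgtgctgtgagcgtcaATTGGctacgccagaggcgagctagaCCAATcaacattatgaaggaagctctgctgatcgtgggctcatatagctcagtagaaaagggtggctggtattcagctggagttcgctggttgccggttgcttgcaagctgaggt
Msmo1, chr16:29746863-29747162, plus strand: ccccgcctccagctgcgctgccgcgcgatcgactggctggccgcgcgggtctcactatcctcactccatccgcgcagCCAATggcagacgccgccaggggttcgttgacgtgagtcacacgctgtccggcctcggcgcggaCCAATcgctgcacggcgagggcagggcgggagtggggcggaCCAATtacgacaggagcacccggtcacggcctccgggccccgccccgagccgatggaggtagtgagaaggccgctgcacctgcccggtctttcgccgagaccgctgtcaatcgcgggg
Tm7sf2, chr1:212789492-212789791, minus strand: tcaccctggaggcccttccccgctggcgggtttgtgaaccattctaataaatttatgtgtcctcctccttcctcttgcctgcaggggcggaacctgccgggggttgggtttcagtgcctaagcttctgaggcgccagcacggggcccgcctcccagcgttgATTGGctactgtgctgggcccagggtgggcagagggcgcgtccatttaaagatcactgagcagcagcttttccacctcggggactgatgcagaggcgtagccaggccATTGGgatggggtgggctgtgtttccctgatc

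In fatty acid synthesis proper 3 of 4 genes fell, against 30.1% of all genes. Fasn, the fatty acid synthase that builds palmitate, went from 659, 745 and 736 to 271, 243 and 249.7, a log2 change of -1.43 (95% interval -1.66 to -1.20; adjusted p = 2e-05). Acss2, which activates acetate to acetyl-CoA in the cytosol and nucleus, went from 109, 159 and 165 to 37.2, 54.5 and 44, a log2 change of -1.38 (95% interval -1.66 to -1.10; adjusted p = 6e-05). Acaca, acetyl-CoA carboxylase, the committed step, went from 284, 304 and 306 to 191, 151 and 156, a log2 change of -0.79 (95% interval -1.06 to -0.52; adjusted p = 0.00078). The groups did not overlap in these 3 genes. The dimmer Fasn probe set fell (-1.25), and the dimmer Acaca probe set did not pass (-0.24; adjusted p = 0.17), so that the mean over Acaca probe sets was -0.52.

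Acly, ATP citrate lyase, which supplies cytosolic acetyl-CoA to both branches, did not pass. Its static signals were 579, 684 and 706 and its sheared signals 635, 664 and 647, a log2 change of -0.01 (95% interval -0.21 to 0.19; adjusted p = 0.92). All sheared arrays lay within the range of the static ones, and the 95% interval reached down to -0.21. After median centring the change was 0.14, still not past the threshold.

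Among the desaturases and elongases 5 of 7 fell, 1 rose and 1 did not pass (all genes: 30.1% fell, 27.8% rose). Scd2, a stearoyl-CoA desaturase that places the first double bond in saturated fatty acids, went from 1939, 2360.0 and 2264 to 209.8, 240.5 and 263, a mean of 2188 ± 221 against 238 ± 26.6 (SD, n = 3 each) and a log2 change of -3.12 (95% interval -3.30 to -2.94; adjusted p = 9.6e-07). Its static mean was 9.20 times its sheared mean, and the pairs were nearly equal at -3.11, -3.21 and -3.03. Another Scd2 probe set fell by a like amount (-3.09), and a much dimmer one by less (-1.22). The dimmest, at 28.9, 26.5 and 31.7 on static and 3.9, 4.8 and 0.9 on sheared arrays, passed the filter only through the static arrays and is given as signals alone.

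Scd, the paralogue of Scd2, did not pass. Its static signals were 109.7, 166 and 184 and its sheared signals 144, 167 and 136, a log2 change of -0.01 (95% interval -0.36 to 0.34; adjusted p = 0.95). The groups overlapped, the pairs differed by 0.35, 0.01 and -0.39, and the sign turned after quantile normalization (0.021), median centring (0.14) and without pair 3 (0.18), without passing in any of these. The interval of Scd2 lay wholly below that of Scd; cross-hybridization between these similar transcripts was not tested. The start sites of both genes lie on chromosome 1, 113 kb apart, and their windows are shown because these paralogues differed in response. The Scd2 window held 2 CCAAT boxes and the Scd window 0. Among the members CCAAT was found in 16 of 21 windows of fallen genes and in 7 of 11 of genes that rose or did not pass. Whether the boxes have a part in the difference between Scd2 and Scd was not tested.
Scd2, chr1:253118127-253118426, plus strand: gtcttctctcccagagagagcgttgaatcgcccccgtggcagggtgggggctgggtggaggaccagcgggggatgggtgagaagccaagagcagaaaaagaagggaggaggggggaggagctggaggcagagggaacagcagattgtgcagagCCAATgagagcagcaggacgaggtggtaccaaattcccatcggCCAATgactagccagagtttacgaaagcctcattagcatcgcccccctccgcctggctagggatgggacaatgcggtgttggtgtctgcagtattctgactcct
Scd, chr1:253231682-253231981, minus strand: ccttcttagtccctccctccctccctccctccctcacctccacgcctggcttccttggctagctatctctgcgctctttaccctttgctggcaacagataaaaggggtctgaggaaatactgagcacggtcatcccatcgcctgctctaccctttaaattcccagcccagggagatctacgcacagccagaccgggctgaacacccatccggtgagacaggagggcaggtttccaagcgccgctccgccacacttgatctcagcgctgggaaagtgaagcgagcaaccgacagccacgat

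Fads1, the delta-5 desaturase of polyunsaturated fatty acids, went from 521, 757 and 792 to 91.1, 99 and 79.4, a log2 change of -2.72 (95% interval -3.06 to -2.38; adjusted p = 7e-06). Fads2, the delta-6 desaturase, whose start site lies 80.7 kb from that of Fads1 on chromosome 1, went from 49.6, 119 and 129 to 54.3, 59.7 and 52.7, a log2 change of -0.61 (95% interval -1.10 to -0.11; adjusted p = 0.045). The Fads1 groups were far apart and its interval lay wholly below that of Fads2. The Fads2 groups overlapped, with static array 1 the lowest of all 6; the pairs were 0.10, -0.83 and -1.08, and the call was lost in 11 of the 15 alternatives run, among them the fits without the pair block (adjusted p = 0.077), without pair 2 (-0.49) and without pair 3 (-0.37); without pair 1 it was -0.96.

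Elovl6, which elongates saturated and monounsaturated fatty acids of 16 carbons, went from 244, 236 and 274 to 42.7, 28.4 and 23.9, a log2 change of -2.50 (95% interval -2.85 to -2.16; adjusted p = 1.1e-05). Elovl5, which elongates polyunsaturated fatty acids, went from 1267, 1412 and 1344 to 605, 518 and 542, a log2 change of -1.25 (95% interval -1.46 to -1.04; adjusted p = 2.5e-05). The other probe sets of Elovl6 (-2.29) and Elovl5 (-1.33) fell by similar amounts, and no groups overlapped. Elovl1, which makes very long saturated and monounsaturated chains used in sphingolipids, rose from 541, 571 and 552 to 798, 830.4 and 788, a log2 change of 0.53 (95% interval 0.35 to 0.70; adjusted p = 0.00075), with pairs at 0.55, 0.53 and 0.50.

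Set side by side, the sterol branch had 14 of 18 genes fallen and 2 risen, and the fatty acid branch 8 of 11 fallen and 1 risen, where 30.1% and 27.8% of all genes did. The median log2 change was -0.88 in the sterol branch and -1.25 in the fatty acid branch, or -0.83 and -1.20 relative to the median of all genes. In pairs 1 to 3 the sterol median was -0.41, -1.01 and -1.17, and the fatty acid median was -1.05, -1.31 and -1.28. The fatty acid median was the lower in each pair, by the most in pair 1; genes are not replicates, and the difference between the branches was not tested. Each branch also held genes that rose or did not pass: Ggps1, Tm7sf2, Msmo1 and Ebp in the sterol branch and Elovl1, Scd and Acly in the fatty acid branch. The transcription factor of the sterol branch, Srebf2, changed by -0.78 and that of the fatty acid branch, Srebf1, by -0.38, with intervals that overlapped. As means over probe sets the changes were -0.34 and -0.33, but the Srebf2 mean takes in an untested probe set with signals of no more than 6.

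A difference between arrays within the static group ran through both branches, as was seen after the values were known. Static array 1 was the lowest of the 3 static arrays in 17 of 18 sterol genes and 10 of 11 fatty acid genes, against 37.4% of all genes. Relative to each gene's static mean, the sterol branch median was -0.29 on static array 1 and 0.13 and 0.17 on static arrays 2 and 3, and the fatty acid branch median was -0.17, 0.08 and 0.11; the medians of all genes were within 0.002 of 0 on these arrays. On sheared arrays 1 to 3 the sterol branch stood at -0.72, -0.97 and -0.97 and the fatty acid branch at -1.13, -1.17 and -1.28. Pair 1 had the least negative change in 17 of 18 sterol and 10 of 11 fatty acid genes, against 44.2% of all genes. Without pair 1 the sterol median was -1.09 and the fatty acid median -1.35, and 26 of the 39 genes fell and 6 rose. That fit also called more probe sets over the whole array, 13024 in either direction against 11471 with all pairs. Shares of all genes under that fit are not given here.

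**Figure D3:**
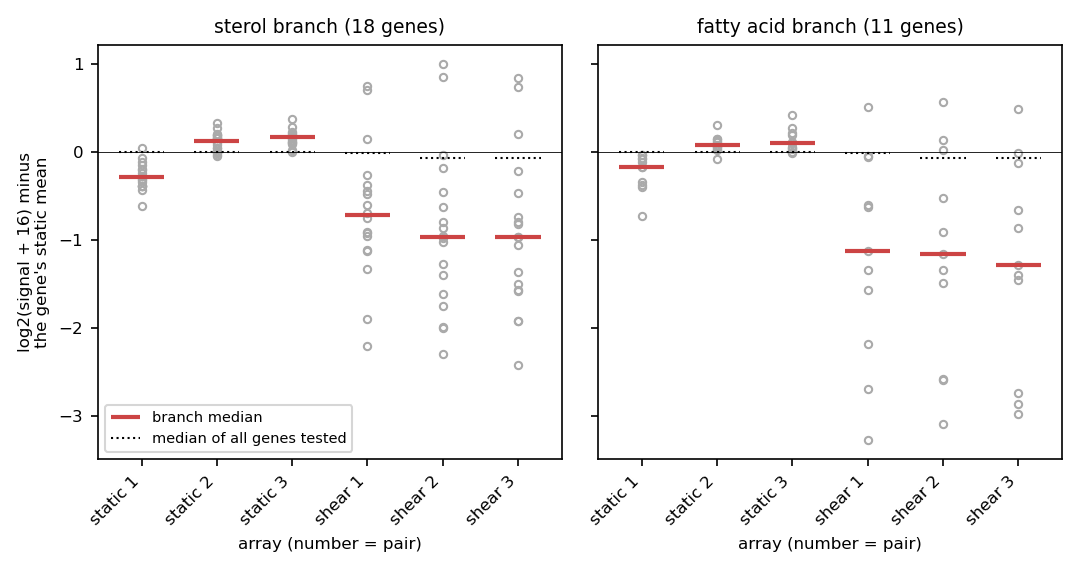
Log2(signal + 16) of each gene on each array, minus that gene's mean over the 3 static arrays (vertical axis), for the sterol branch (left, 18 genes) and the fatty acid branch (right, 11 genes); grey circles are genes, red bars branch medians and dotted bars the medians of all genes tested. Static array 1 sits below static arrays 2 and 3 in both panels, with branch medians of -0.29 and -0.17, and the sheared arrays lie lower, between -0.72 and -0.97 for the sterol branch and between -1.13 and -1.28 for the fatty acid branch.

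Of 3 matched genes of uptake and transport 1 fell, 1 rose and 1 did not pass, shares close to those over all genes (30.1% fell, 27.8% rose). Vldlr, the very low density lipoprotein receptor, went from 1941, 2325 and 1958 to 656, 882 and 813, a log2 change of -1.39 (95% interval -1.57 to -1.21; adjusted p = 7.8e-06). No groups overlapped on any of its 4 probe sets, which all fell, with log2 changes of -1.39, -1.76, -1.92 and -3.13. Npc2, a lysosomal protein that hands cholesterol to NPC1, rose from 1131, 1350.5 and 1386 to 2133, 1788 and 1773, a log2 change of 0.55 (95% interval 0.30 to 0.81; adjusted p = 0.0035), with all sheared arrays above all static ones. Stard4, a cytosolic sterol carrier, had static signals of 75.1, 85.3 and 87.6 and sheared signals of 69.2, 102 and 118 on its brightest probe set, a log2 change of 0.17 (95% interval -0.13 to 0.46; adjusted p = 0.31). A dimmer Stard4 probe set fell without overlap (-0.61; adjusted p = 0.0053), so the direction depends on the probe set: as a mean over its probe sets Stard4 passed as fallen (-0.27, adjusted p = 0.043), and without pair 1 the brightest probe set passed as risen (0.30, adjusted p = 0.026).

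Both efflux transporters of the liver X receptor pathway had probe sets that disagreed. Abca1, which exports cholesterol to apolipoprotein A-I, had static signals of 99.5, 67.2 and 57.9 and sheared signals of 58.9, 67.3 and 70.7 on the probe set with the highest mean log2 signal, a log2 change of -0.13 (95% interval -0.53 to 0.26; adjusted p = 0.55). On the probe set with the highest mean linear signal it went from 187, 129.7 and 144 to 23, 23.7 and 24.2, a log2 change of -2.08 (95% interval -2.39 to -1.77; adjusted p = 1.5e-05). The groups overlapped on the former probe set and were far apart on the latter. A further 2 Abca1 probe sets fell (-1.67 and -0.49), so that 3 of 4 fell; the mean over the 4 passed as fallen (-1.09, adjusted p = 0.0010). Abcg1, which exports cholesterol to high-density lipoprotein, was dim, with static signals of 25.1, 16.5 and 19.3 and sheared signals of 9.9, 9.3 and 13.1, a log2 change of -0.44 (95% interval -0.76 to -0.11; adjusted p = 0.030). Its call was lost without pair 1 (-0.32), without pair 2 (-0.47) and without pair 3 (-0.51), under both scalings (-0.30 and -0.29) and with no filter; with pseudocounts of 64 and 1 the change was -0.17 and -0.85, and another dim probe set did not pass with the opposite sign (0.24).

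Over the list, 21 genes had more than 1 tested probe set. In 15 of them the probe sets lay on the same side of the test, in 6 a called probe set stood beside one that did not pass (Srebf1, Ggps1, Acaca, Stard4, Abca1 and Abcg1), and no gene had probe sets called in both directions. Probe sets of a gene read different stretches of its transcripts, and which stretch each reads was not analysed here.

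**Figure D4:**
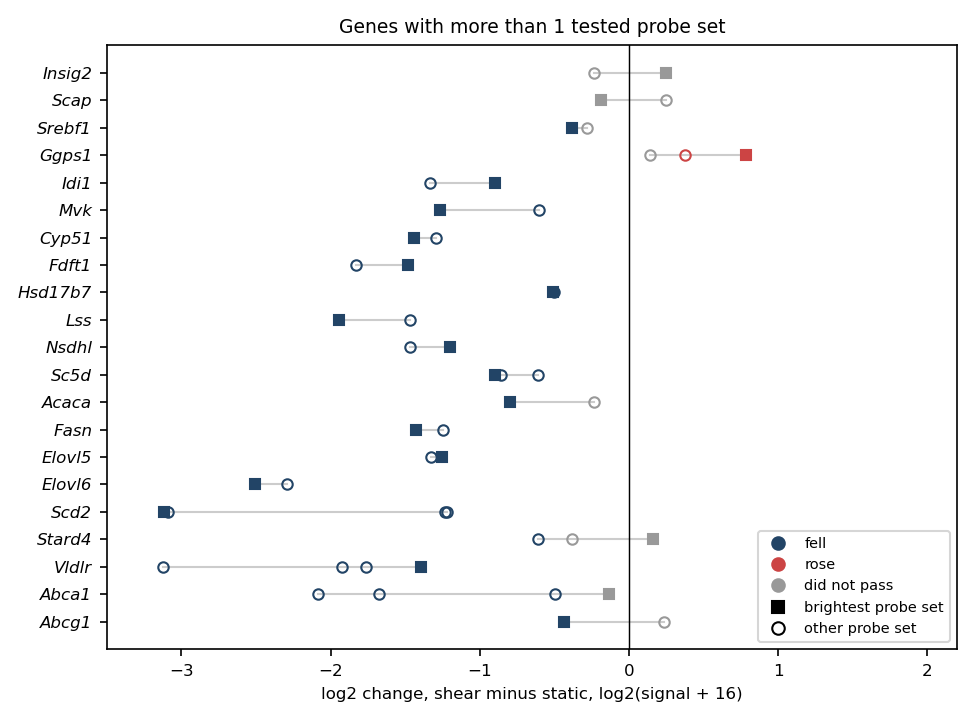
Log2 change, shear minus static, of every tested probe set (horizontal axis) for the 21 genes with more than 1; squares are the probe set with the highest mean log2 signal, open circles the others, and colours show the call. Vldlr ranges from -3.13 to -1.39 with every probe set fallen, whereas Abca1 ranges from -2.08 to -0.13 and its square did not pass.

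A further list of 50 genes around these pathways (acyl-CoA synthetases, elongation cycle enzymes, triglyceride synthesis, SREBP proteases, sterol esterification and transport) was matched for 42 genes and tested for 39. Of these, 14 rose (Apoe among them, which passed the filter only through the sheared arrays), 12 fell and 13 did not pass, or 35.9% and 30.8% against 27.8% and 30.1% of all genes, with a median of -0.13. The 4 with the smallest adjusted p were Acsl3, an acyl-CoA synthetase, Me1, the cytosolic malic enzyme, Acat1, the mitochondrial acetyl-CoA acetyltransferase, and Mbtps1, the protease that makes the first cut in the SREBPs. Acsl3 went from 211, 220.2 and 228 to 54.7, 44.2 and 58.2 (log2 change -1.79; adjusted p = 1.4e-05), Acat1 from 388, 412 and 458 to 162, 156 and 168 (log2 change -1.29; adjusted p = 3e-05) and Mbtps1 from 317, 327 and 351 to 131, 135 and 151 (log2 change -1.17; adjusted p = 4.6e-05); none of the groups overlapped, and all 3 fell. Me1, which supplies NADPH to fatty acid synthesis, rose from 413, 363 and 379 to 910.2, 838 and 862 (log2 change 1.14; adjusted p = 2e-05).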

How the data were processed

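Signals from 6 arrays, 3 static and 3 sheared, were analysed. The authors made the deposited intensity values, which are linear, with MAS5, per the submitters' processing notes; the sources used here give no version. The number of arrays limits the precision. The 57 control probe sets were left out. Genes were named from probe sets annotated with 1 symbol; no member's gene identifier differed from that in a GRCr8 gene table. Each gene was represented by its probe set of highest mean log2 signal.

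The value 16 was added before taking log2, which understates changes of dim genes, and the dimmest 30% of probe sets by mean were dropped, leaving 21729. Conditions were compared by lmFit and eBayes with an intensity trend (limma 3.58.1, R 4.3.3), the pairing number being a fixed block because the series design calls the experiment paired; deviations from group means correlated by 0.057, 0.048 and 0.048 within pairs. P-values are two-sided, with Benjamini-Hochberg adjustment across the tested probe sets and a threshold of 0.05. The fit was run on simulated data with independent noise, no differences between pairs and few changed probe sets. The real data changed broadly, so that run checks the code and not the error rate of these calls. Members, lists and tests were chosen with earlier results of these data known. By rule, signals on every array were given for the regulators and for up to 6 members of each other group with the smallest adjusted p, and up to 4 further pathway genes were named by smallest adjusted p; array signals of Mvd, Sqle, Hsd17b7, Ebp, Msmo1, Tm7sf2 and Scd were added after their values were seen.

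Alternatives covered the block (none, or random), scaling (quantile, or each array's median), the filter (none, or 50%), the pseudocount (64, or 1), eBayes without trend or robust, each pair left out, and a mean over a gene's probe sets; choosing probe sets by linear mean was added after seeing the data. Promoter windows came from RefSeq. Plots were made in matplotlib 3.10.9 (Python 3.11.15).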

Additional observations from a re-analysis of the deposited data

How the results depend on the processing

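The counts of 27 fallen and 4 risen genes stayed within 1.5 times in every alternative run, at 22 to 28 and 4 to 6. The number of probe sets called over the whole array varied as well, from 8389 without pair 3 to 13024 without pair 1. Without the replicate block 26 fell and 4 rose, with 11430 probe sets called in all against 11471. The spread between pairs, the SD of the pair medians, was 0.40 in the sterol branch and 0.15 in the fatty acid branch. After median centring, which shifts all genes up, the sterol median was -0.73 and the fatty acid median -1.10. With a pseudocount of 64 they were -0.71 and -0.92. The fatty acid median moved by more than its own, smaller spread in both of these, and the sterol median stayed within its wider spread throughout. The sterol branch is thus not shown to be the steadier one. Of 31 called genes 26 kept their call and direction in every alternative in which they were tested, and Srebf1, Mvd, Hsd17b7, Fads2 and Abcg1 lost it in at least 1. Signs turned in genes that had not passed: Scd was 0.021 after quantile normalization, 0.14 after median centring and -0.19 to 0.18 with a pair left out; Acly was 0.14 after median centring and -0.082 to 0.044 with a pair left out; Abca1 was 0.0026 after quantile normalization, 0.018 after median centring and -0.31 to 0.12 with a pair left out; Msmo1 was -0.050 to 0.26 with a pair left out; as means over probe sets Scap was 0.032 and Stard4 -0.27. For the probe set choice in Abca1 and Stard4 the cause was not tested. With only 2 pairs and the block, 1 residual degree of freedom was left, so those calls rest largely on variance estimated over the whole array. Whether dim signals such as those of Abcg1 exceed background was not tested.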
